A study of Mus musculus with 26 samples.

Results

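Kupffer cells are the resident macrophages of the liver sinusoids, where they meet bacterial products arriving with portal blood. Lipopolysaccharide (LPS) is sensed through the receptor TLR4, whose signalling activates NF-κB, MAP kinases that drive the AP-1 family of FOS and JUN proteins, and interferon regulatory factors. In macrophages, stimulation opens chromatin at regulatory elements that were closed or weakly open before, and such elements lie mostly in introns and between genes. ATAC-seq, which measures how often a transposase inserts into accessible DNA, was used here to find the elements that opened within 2 h of LPS.

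The regions described are the 3876 peaks of Kupffer cell open chromatin that were called under LPS in both BALB/cJ and C57BL/6J mice and in no control of A/J, BALB/cJ or C57BL/6J mice. They were chosen from 94074 peaks on chromosomes 1 to 19, outside an interval of chromosome 11 from 3.1 to 3.19 Mb, by requiring at least 1 bp of overlap with the reproducible peak list of each LPS-treated strain and none with the 3 control lists. For comparison, 36716 peaks were in all 5 lists, 6506 were in 1 LPS list and in no control list, and 4891 were in all 3 control lists and in neither LPS list. A reproducible list holds peaks that rank alike in replicate libraries by the irreproducible discovery rate. The lowest list score at a gained peak was 540, and 1595 gained peaks had the capped score of 1000 in both lists.

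The 17 libraries from inbred mice comprised 4 A/J control, 4 BALB/cJ control, 4 C57BL/6J control, 2 BALB/cJ LPS and 3 C57BL/6J LPS libraries. The 9 libraries from CB6F1/J mice, the F1 hybrid of BALB/cJ and C57BL/6J, comprised 4 control and 5 LPS libraries, and the rule that chose the peaks did not use them. Per the labels all mice were males of 8 to 12 weeks with no engineered allele, fasted overnight, and the LPS mice received 0.1 mg/kg of LPS intraperitoneally 2 h before collection, while control mice were not injected. In the library names, however, only inbred LPS libraries carry the word Fasted and the controls carry Chow, so a difference in feeding was not tested. Kupffer cells were sorted by surface markers from digested livers, with a transcription inhibitor in the perfusion and digestion buffers of every group. Each group is an average over the sorted cells, so that fewer cells of a type and less accessibility per cell cannot be told apart.

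Library names carry a date. All control libraries share 1 date, whereas the LPS libraries carry 2 later dates, so that treatment and date cannot be told apart. BALB/cJ LPS and CB6F1/J LPS replicates 1 and 2 share a date, and C57BL/6J LPS and CB6F1/J LPS replicates 3 to 5 share the other. Strain and date therefore cannot be told apart between the inbred LPS libraries. C57BL/6J LPS replicate 1 stood apart at the gained peaks, where its median was 11.2 normalised tags against 29.9 and 32.7 in replicates 2 and 3, although the medians of these 3 libraries were between 56.1 and 57.4 at the peaks in all 5 lists. Inbred ratios of C57BL/6J are therefore given with and without it. Tags in autosomal peaks numbered from about 2043720 to 46272000 per inbred library, and perfectly mapped tags from about 11434700 to 24946200 per hybrid library. Promoter accessibility of 5 measured Kupffer cell markers summed to 1756 to 2050 normalised tags in the hybrid controls and to 890 to 1215 under LPS. Clec4f and Cd5l were called lower, with log2 ratios of -1.88 and -1.03. Timd4, Adgre1 and Csf1r, at -0.57, -0.80 and -0.57, were not called. No peak was matched to the promoters of the 3 hepatocyte markers. The 2 measured markers of sinusoidal endothelium summed to 49.5 to 110 in controls and 128 to 242 under LPS. Lyve1 rose from a mean of 57.5 to 167 (log2 ratio 1.54), while Kdr, at 22.7 and 28.7 (0.34), was not called. The lymphocyte and monocyte markers, with 1 measured gene each, stayed under 27. The 1 measured neutrophil marker was at 175 to 238 in controls and 184 to 245 under LPS. The part of these cell types in the results below was not tested.

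The sequences of 8 gained peaks are shown because they carry the letters most frequent among the motifs searched in the group (AP-1) or those the LPS pathway is best known for (κB), near genes described below. They were read from GRCm38.p6, the reference assembly that mm10 denotes, on the forward strand from 5′ to 3′, and capitals mark matches to the AP-1 motif TGANTCA and to the 10-letter κB consensus of NF-κB on either strand. None of them overlapped an exon of the GENCODE M21 annotation.

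Bach1, chr16:87724866-87725066: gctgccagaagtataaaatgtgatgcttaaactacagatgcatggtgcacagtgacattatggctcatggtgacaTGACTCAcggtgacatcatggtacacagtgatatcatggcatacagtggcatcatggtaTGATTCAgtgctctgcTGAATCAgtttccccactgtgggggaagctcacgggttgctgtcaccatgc
Socs1, chr16:10754555-10754755: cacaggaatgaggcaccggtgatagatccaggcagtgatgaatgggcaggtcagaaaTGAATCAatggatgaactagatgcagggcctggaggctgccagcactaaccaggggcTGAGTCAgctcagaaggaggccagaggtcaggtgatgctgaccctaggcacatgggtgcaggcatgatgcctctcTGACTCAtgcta
Atf3, chr1:191189993-191190193: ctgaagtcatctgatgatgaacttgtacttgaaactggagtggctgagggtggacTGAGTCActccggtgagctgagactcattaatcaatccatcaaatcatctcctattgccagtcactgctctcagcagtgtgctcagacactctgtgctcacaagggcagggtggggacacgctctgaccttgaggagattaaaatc
Tnip1, chr11:54934292-54934492: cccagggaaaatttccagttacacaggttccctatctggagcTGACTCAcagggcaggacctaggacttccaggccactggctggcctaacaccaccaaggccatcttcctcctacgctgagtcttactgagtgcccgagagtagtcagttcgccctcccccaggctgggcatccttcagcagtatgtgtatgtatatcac
Il27, chr7:126599047-126599247: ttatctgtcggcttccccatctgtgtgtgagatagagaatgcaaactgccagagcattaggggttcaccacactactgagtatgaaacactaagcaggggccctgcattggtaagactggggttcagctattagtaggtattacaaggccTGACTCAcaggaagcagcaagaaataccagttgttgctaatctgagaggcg
Rsad2, chr12:26441916-26442116: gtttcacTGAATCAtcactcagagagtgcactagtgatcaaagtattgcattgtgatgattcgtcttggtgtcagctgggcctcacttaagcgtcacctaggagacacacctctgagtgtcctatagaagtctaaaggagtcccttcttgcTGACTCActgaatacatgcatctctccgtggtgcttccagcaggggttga
Cd44, chr2:102981524-102981724: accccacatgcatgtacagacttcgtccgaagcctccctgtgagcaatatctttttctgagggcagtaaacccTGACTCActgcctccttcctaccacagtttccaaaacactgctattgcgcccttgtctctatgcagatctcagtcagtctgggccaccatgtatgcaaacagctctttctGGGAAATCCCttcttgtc
Nos2, chr11:78920568-78920768: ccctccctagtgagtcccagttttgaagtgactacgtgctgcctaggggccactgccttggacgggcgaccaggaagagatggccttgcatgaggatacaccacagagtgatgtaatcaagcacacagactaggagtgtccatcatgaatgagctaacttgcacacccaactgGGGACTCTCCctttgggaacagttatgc

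The peaks near Bach1 and Socs1 each held 3 AP-1 matches, that near Rsad2 held 2, and those near Atf3, Tnip1 and Il27 held 1. The peak near Cd44 held both an AP-1 and a κB match, and the peak at the start of Nos2 held a κB match and no AP-1 match. A match is a run of letters and does not show that a factor was bound.

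The values that chose the peaks are given first, as a description without a test. In the inbred libraries, the median gained peak had 3.16 to 4.66 normalised tags in the A/J controls, 3.78 to 4.90 in the BALB/cJ controls and 3.89 to 5.23 in the C57BL/6J controls. Under LPS, the medians were 32.3 and 35.3 in the BALB/cJ libraries and 11.2, 29.9 and 32.7 in the C57BL/6J libraries. Every LPS library was thus above every control library in its median, with C57BL/6J LPS replicate 1 the lowest of the LPS libraries.

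**Figure D1:**
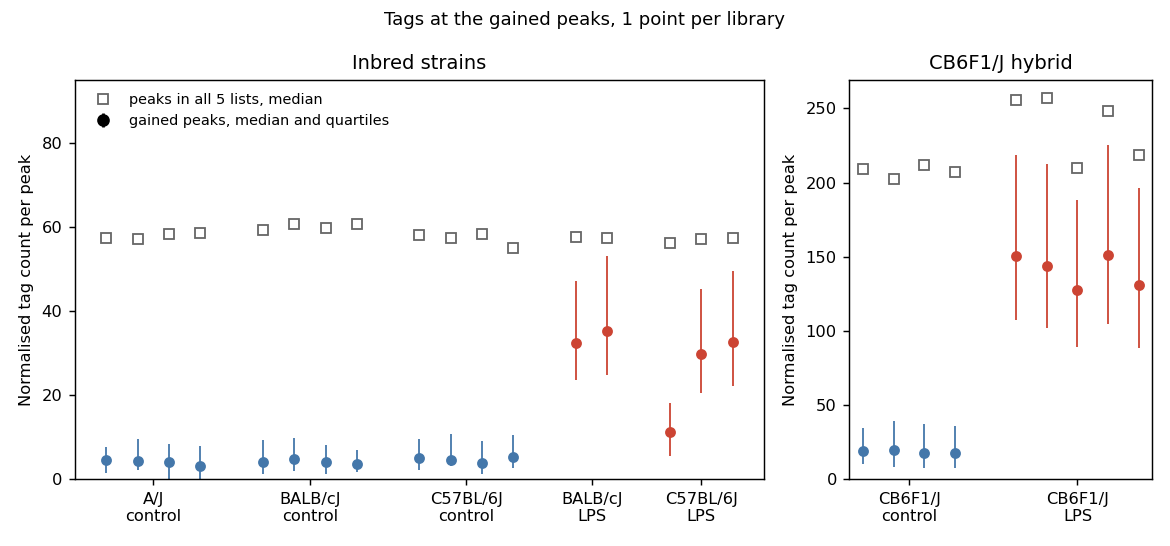
Normalised tag count per peak in each library for inbred strains and the CB6F1/J hybrid, with circles and lines giving the median and quartiles of the 3876 gained peaks (3297 in the hybrid) and squares the median of peaks in all 5 lists. The gained peaks sit at medians of 3.16 to 5.23 in the inbred controls and 11.2 to 35.3 in the inbred LPS libraries, and at 17.9 to 19.6 and 128 to 151 in the hybrid control and LPS libraries.

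The median log2 ratio of LPS over control was 2.27 in C57BL/6J (10th to 90th percentile 0.23 to 4.00) and 3.02 in BALB/cJ (0.70 to 5.07), against -0.01 and -0.07 over all autosomal peaks. Without C57BL/6J LPS replicate 1 the C57BL/6J median was 2.60 (0.27 to 4.45). A log2 ratio over 1 in both strains was found at 3146 gained peaks (81.2%) and at 13.1% of all peaks. Without that replicate the count was 3222 (83.1%, against 14.1%). The tag counts did not follow the lists everywhere, since the ratio was at or below 0 in C57BL/6J at 310 gained peaks, in BALB/cJ at 211 and in both at 190. Without C57BL/6J LPS replicate 1 these counts were 305 in C57BL/6J and 187 in both.

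Absence from the control lists did not mean absence of tags or of any called peak. No gained peak was without tags in all 12 inbred control libraries. A peak called in a single control library at a lax threshold overlapped 3253 of the gained peaks, in a median of 3 of the 12 libraries, and 8 gained peaks had one in all 12. By contrast, 90.1% of the peaks in all 5 lists had one in all 12. The remaining 623 gained peaks, with no called peak in any control library, had median log2 ratios of 2.74 in C57BL/6J (3.12 without LPS replicate 1) and 3.95 in BALB/cJ.

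At the limit of the rule, the gained peaks near Nek7, Tmem11 and Susd6 had the lowest list score of 540, with C57BL/6J log2 ratios of 0.96, -1.87 and 2.39 and BALB/cJ log2 ratios of 2.44, -1.67 and 5.07. The gained peaks near Rxra and Tnip1 had the smallest overlaps with an LPS list, of 21 and 41 bp, and their C57BL/6J ratios were 0.54 and 1.21 and their BALB/cJ ratios -0.33 and 0.01. Just outside, the peaks near Klrb1b and Midn touched 1 control list by 13 and 14 bp and had C57BL/6J ratios of -0.62 and -1.73 and BALB/cJ ratios of 0.38 and -0.14. The peaks near Icosl, B3gntl1 and Ddx4 were left out for a control peak with a score of 540, with C57BL/6J ratios of 1.01, 1.42 and 0.41 and BALB/cJ ratios of 1.91, 2.68 and 1.69. The 2755 peaks in both LPS lists and 1 control list had median ratios of 1.34 in C57BL/6J and 1.54 in BALB/cJ, compared with 1.69 and 2.45 at the 429 gained peaks with a list score under 600. Without C57BL/6J LPS replicate 1 the C57BL/6J ratios were 1.11, -2.51 and 2.91 near Nek7, Tmem11 and Susd6, 0.59 and 1.17 near Rxra and Tnip1, -0.62 and -1.67 near Klrb1b and Midn, and 1.04, 1.75 and 0.28 near Icosl, B3gntl1 and Ddx4. The C57BL/6J medians then became 1.51 at the 2755 peaks and 1.93 at the 429.

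The CB6F1/J libraries ask whether the same elements opened in mice that the rule did not use. A peak of the hybrid table, each covering at least 50% of the other, was matched to 3297 gained peaks, and the other 579 have no hybrid value. Calls used edgeR's quasi-likelihood test with an adjusted p under 0.05 and an absolute log2 ratio over 1. Under LPS, 2855 gained peaks were higher, 6 were lower and 436 were not called. The higher calls made up 86.6% of the 3297 tested gained peaks and 73.7% of all 3876. A peak was tested only if the hybrid table, made from peaks called in the hybrid libraries, held a match. Of the 3297, 2406 were in the hybrid list of perfectly mapped tags under LPS and not in that of the controls. Shares of tested gained peaks, here and below, are therefore not free of the hybrid LPS values. The shares of other sets given below are of tested peaks. Of all 210185 hybrid peaks tested, 14.3% were higher and 10.5% were lower, and of the 76171 that match an autosomal inbred peak 21.6% were higher. The lower calls numbered 10 when CB6F1/J control replicate 2 or 3 was left out. Every LPS library was above every control library at 2854 gained peaks (86.6% of those tested). This held at 16.4% of all hybrid peaks tested and 26.6% of those that match an inbred peak.

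In the hybrid, the median gained peak had 17.9 to 19.6 normalised tags in the 4 control libraries and 150, 144, 128, 151 and 131 in the 5 LPS libraries. The groups did not overlap in this median. These are tags that mapped perfectly to mm10, since the columns of all tags were at odds with them in the control libraries. Which of these control columns is at fault was not settled. With all tags on mm10, 2727 gained peaks were higher, 7 were lower and the median log2 ratio was 2.49. With perfectly mapped tags the median log2 ratio was 2.84 (10th to 90th percentile 0.71 to 4.74), against -0.09 over all hybrid peaks. Peaks in all 5 inbred lists had a median of 0.13 with 14.4% higher, peaks in 1 LPS list a median of 1.87 with 68.7% higher, and peaks lost under LPS a median of -0.80 with 0.79% higher and 36.6% lower. The 557 measured peaks with no called peak in any inbred control library had 417 higher calls and 2 lower calls.

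**Figure D2:**
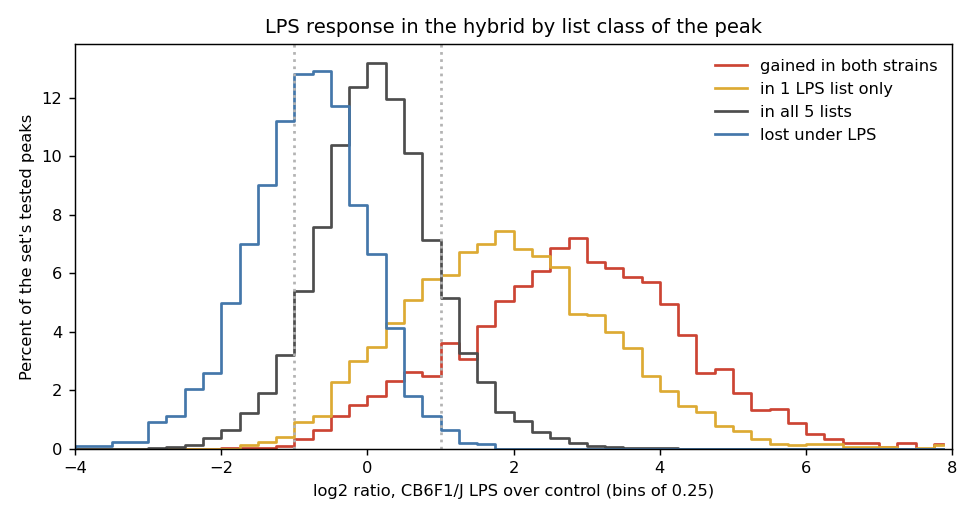
Distribution of the log2 ratio of CB6F1/J LPS over CB6F1/J control in bins of 0.25, drawn from -4 to 8, as the percent of each set's tested peaks. Dotted lines mark ratios of -1 and 1. The gained peaks have their median at 2.84 and the peaks in all 5 lists at 0.13.

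With the LPS libraries of the earlier date alone (replicates 1 and 2), 2716 gained peaks were higher with a median ratio of 2.91, and with those of the later date alone (replicates 3 to 5), 2709 were higher with a median of 2.77. These fits use the same control libraries, of a date of their own. The authors' own hybrid peak lists, from perfectly mapped tags, held 3292 of the 3297 matched gained peaks under LPS, but also 97.4% of all matched inbred peaks, so that presence in this list says little of the gained peaks. Of the matched gained peaks 2406 (73.0%) were in the LPS list alone. Of all matched inbred peaks 12.8% were in the LPS list alone, and of the peaks in all 5 inbred lists 0.22%. At matched peaks in 1 inbred LPS list and in no control list the share was 72.0%. It is therefore not particular to peaks gained in both strains. The reproducible lists made from variant-spanning reads of 1 allele were sparse: under LPS the C57BL/6J list held 446 gained peaks (11.5%) and the BALB/cJ list 479 (12.4%), while the control lists held 61 (1.57%) and 66 (1.70%). For all autosomal peaks these shares were 13.5%, 14.5%, 9.29% and 9.17%. For peaks in 1 inbred LPS list and in no control list they were 15.1%, 14.6%, 3.18% and 2.35%.

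The setting of the peaks that were not called higher in the hybrid is described without a test. Tags were counted in a window of 1000 bp around each 201-bp peak, and at 1828 gained peaks (47.2%, against 46.0% of all peaks) this window overlapped that of another peak. Among the 436 gained peaks tested and not called, 88.3% shared a window, 59.2% lay within 1 kb of a gene start and 15.6% held an AP-1 match, whereas among the 2855 called higher the shares were 37.3%, 6.13% and 58.4%. Within 1 kb of a gene start, 146 of 409 tested peaks with a shared window were higher (35.7%, median ratio 0.64), and 29 of 29 with a window of their own were higher. Farther than 1 kb, the shares were 87.8% with a shared window and 97.2% with a window of their own. Over all gained peaks with a window of their own, 1791 of 1842 tested were higher by edgeR, 0 were lower and the median ratio was 3.28. At an unadjusted p under 0.05, 0 of these had a ratio below 0, and DESeq2 also called 0 lower. The part of neighbouring peaks in the uncalled ones was not tested.

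Gained peaks lay away from gene starts. The submitters' annotation placed 50.1% in introns (43.7% of all peaks), 38.1% between genes (34.5%) and 7.92% at promoters (15.1%, and 26.5% of peaks in all 5 lists). The median distance to the nearest gene start was 15684 bp, against 10853 bp over all peaks. Of the peaks in 1 LPS list and in no control list, 48.8% were in introns, 39.0% between genes and 7.19% at promoters. Their median distance was 16949.5 bp. Peaks lost under LPS were at promoters in 9.02%, with a median distance of 9588 bp. In the hybrid, 1461 of 1653 tested intronic peaks (88.4%), 1197 of 1280 intergenic peaks (93.5%) and 108 of 244 promoter peaks (44.3%) were higher, and 329 of 346 peaks more than 100 kb from a gene start were higher (95.1%). Within 10 kb of another gained peak lay 925 (23.9%), which was not compared with other sets. Gained peaks were nearest to 2672 genes, of which 733 had at least 2 gained peaks and 55 had at least 5.

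The AP-1 motif TGANTCA, the letters read by FOS and JUN dimers, stood in 2015 gained peaks (52.0%). It stood in 13.2% of the peaks in all 5 lists, 2.70% of those lost under LPS, 34.8% of those in 1 LPS list and 14.3% of all autosomal peaks. At least 2 matches stood in 426 gained peaks, against 1.54% of all peaks. The version with C or G at the centre was in 43.7% of gained peaks (11.3% of all) and the version with A or T in 12.4% (3.57%). Beyond 1 kb from a gene start, the AP-1 share was 56.7%, against 16.8% of all peaks at such distances.

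The κB motif of NF-κB was in 7.87% of gained peaks, 8.06% of peaks in all 5 lists and 6.85% of all peaks. Peaks with both a κB and an AP-1 match made up 3.33% of the gained peaks and 0.881% of all peaks. The interferon-stimulated response element GAAANNGAA, read by IRF proteins, was in 6.40% of gained peaks and 8.88% of all peaks, the C/EBP letters TTGCNNAA in 12.5% and 11.5%, and the STAT letters TTCNNNGAA in 6.76% and 6.03%. The macrophage ETS motif GAGGAAGT of PU.1, the factor that sets up most macrophage enhancers, was in 3.66% of gained peaks, 9.85% of peaks in all 5 lists and 8.60% of all peaks. TGCTGAC of MAF proteins was in 6.09% and 5.51% of gained and all peaks, and GTGGGAA of RBPJ in 4.54% and 4.85%. CTCF's AGNNGGCGC was in 1.42% of gained peaks against 4.49% of all peaks, and the CRE (TGACGTCA) and the MiT/TFE E-box (TCACGTGA) were in 0.284% and 0.335%, against 0.837% and 0.469% of all peaks. Both strands were searched, and the MAF and AP-1 letters can overlap. Gained peaks had a median GC content of 47.8%, against 49.3% for all peaks and 51.7% for those in all 5 lists. No CpG was held by 18.1% of gained peaks, against 10.1% of all peaks. Peaks in 1 LPS list and in no control list were close to the gained peaks in these traits. They held the PU.1 motif in 4.32% and the CTCF motif in 1.77%, and 16.4% held no CpG.

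**Figure D3:**
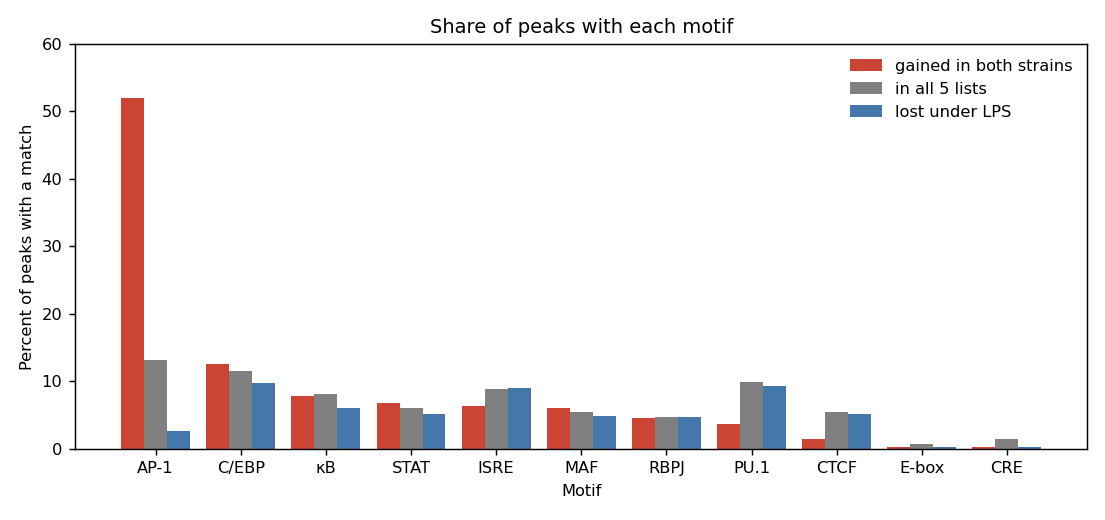
Percent of 201-bp peaks holding at least 1 match to each of 11 motifs in the gained peaks, the peaks in all 5 lists and the peaks lost under LPS. The AP-1 bars stand at 52.0%, 13.2% and 2.70%, and those of PU.1 at 3.66%, 9.85% and 9.32%.

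The AP-1 matches lay at the middle of the gained peaks. Within 60 bp of the centre lay 71.5% of the AP-1 matches found in 360 bp, against 50.4% in the peaks in all 5 lists. The density at gained peaks reached 12.05 matches per 100 peaks in a 20-bp bin at the centre and averaged 1.06 beyond 100 bp. Of the κB matches, 50.6% lay within 60 bp of the centre in gained peaks and 42.8% in the peaks in all 5 lists. These letter searches use the reference sequence alone, not the tag counts.

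**Figure D4:**
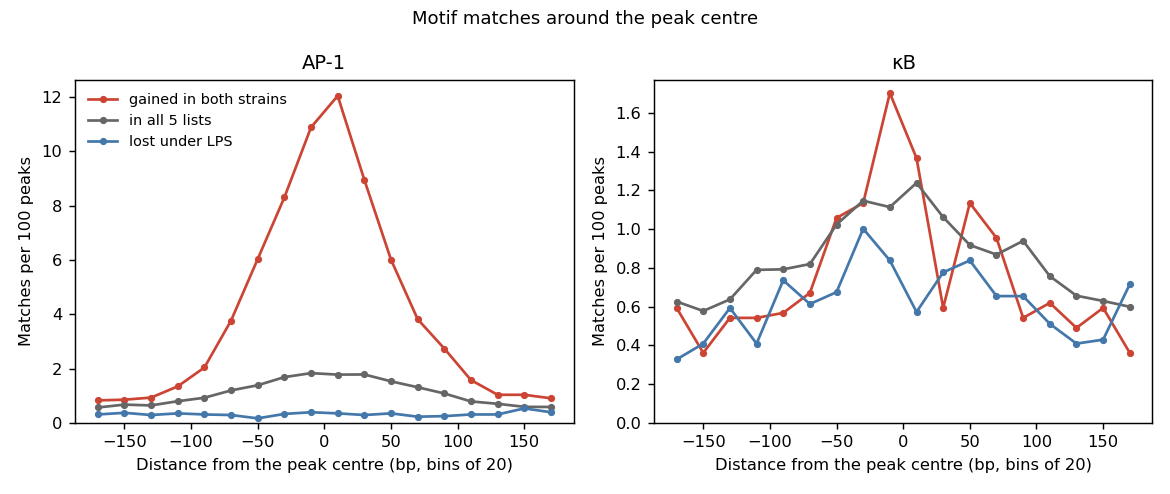
Matches per 100 peaks in bins of 20 bp by distance from the peak centre, for AP-1 and κB, in gained peaks, peaks in all 5 lists and peaks lost under LPS, with separate vertical scales. AP-1 matches at gained peaks rise to 12.05 per 100 peaks at the centre, and to 1.83 at peaks in all 5 lists.

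Gained peaks with an AP-1 match had larger ratios in the hybrid than those without. Of 1734 tested peaks with a match, 1666 were higher (96.1%) with a median ratio of 3.28, and of 1563 without a match 1189 were higher (76.1%) with a median of 2.26. With at least 2 matches, 370 of 372 were higher with a median of 3.71. Peaks with κB and no AP-1 match had 121 of 152 higher with a median of 2.36, and those with neither had 1068 of 1411 higher with a median of 2.24. Among gained peaks with a window of their own the contrast was smaller, with 1127 of 1143 higher and a median of 3.50 with an AP-1 match and 664 of 699 and 2.88 without. Peaks in all 5 lists showed the same order at a lower level, with 34.7% higher with an AP-1 match and 11.1% without. No test was run between these classes, since the peaks are not replicates.

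Among single peaks, each is named here by its nearest gene start, which does not show that it acts on that gene. The intronic peak of Bach1, a heme-sensing repressor, shown above, was among the highest under LPS. Its hybrid controls held 26.3, 4.19, 7.69 and 5.62 normalised tags and its LPS libraries 813, 824, 602, 741 and 700. The groups were far apart, and the log2 ratio was 5.94 ± 0.30 (SE; edgeR adjusted p = 3.4e-14). An intergenic peak near Uox, the urate oxidase gene, held 12.2, 0, 20.5 and 14.6 tags in controls and 780 to 991 under LPS, with 2 AP-1 matches and a ratio of 6.19 ± 0.30. The intronic peak of Tnfsf4, which encodes the OX40 ligand, rose by 5.37 ± 0.28 from 2.79 to 23.6 tags in controls to 471 to 766 under LPS.

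The peaks near Il10, Il33, Zeb1 and Map10 were named for the largest hybrid log2 ratios among the gained peaks that could be named. Their nearly empty controls and large ratios follow from that choice, for which the intervals below do not allow. At a peak 18.8 kb upstream of Il10, an anti-inflammatory cytokine gene, the hybrid controls held 0, 2.79, 0 and 0 normalised tags and the LPS libraries 283, 339, 276, 252 and 329. Only 2 tags stood in the 4 controls together against 1683 in the 5 LPS libraries, a ratio of 507 with a 95% interval from 140 to 4187 that covers counting error alone. A peak 37.4 kb upstream of Il33, a cytokine of the IL-1 family, held 2 tags in the controls and 1218 under LPS, a ratio of 367 (101 to 3031). Peaks near Zeb1 and Map10 each held 1 tag in the controls and 1402 and 1101 under LPS, ratios of 844 (151 to 33360) and 663 (119 to 26210). In the inbred libraries the Il33 peak stayed at 0 to 2.59 normalised tags in the controls, and held 4.21, 50.4 and 65.3 in C57BL/6J LPS and 39.3 and 44.2 in BALB/cJ LPS.

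**Figure D5:**
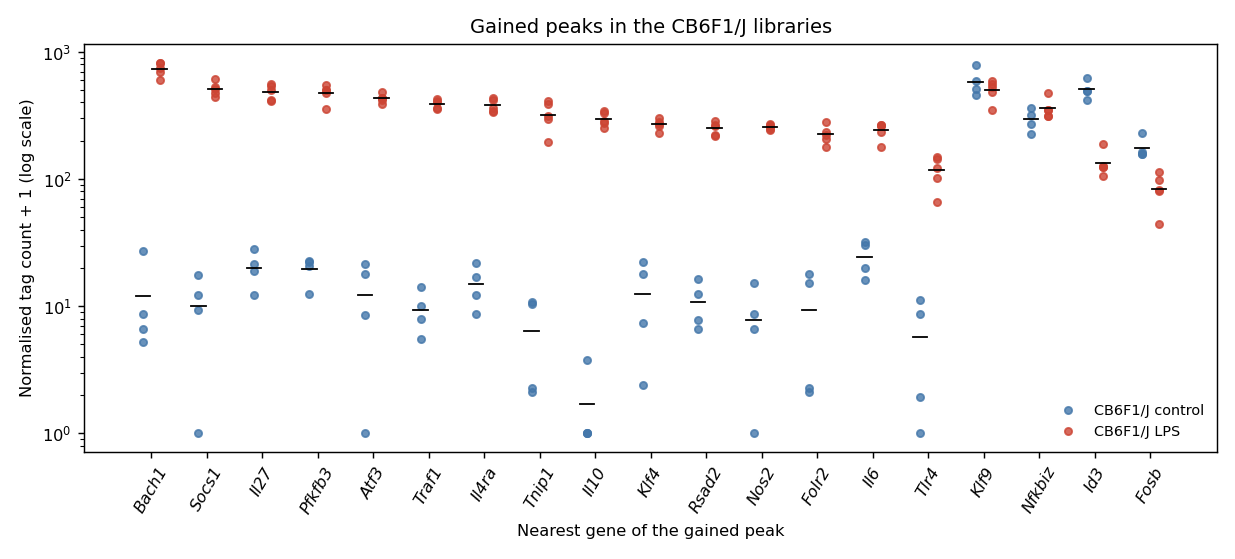
Normalised tag count plus 1, on a log scale, of 19 gained peaks named by nearest gene, with 1 point per CB6F1/J control (4) or LPS library (5) and bars at the mean. At 15 peaks from Bach1 to Tlr4 every LPS library lies above every control, those of Klf9 and Nfkbiz overlap, and at Id3 and Fosb every LPS library lies below every control.

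The genes of the LPS response are described by lists chosen with earlier results of these data known. Since 86.6% of all tested gained peaks were higher in the hybrid, the counts of higher peaks given for each list are to be read against that share. Inflammatory cytokine genes were nearest to 290 peaks, of which 31 were gained (10.7%, against 4.12% of all peaks), near 18 of 33 genes. Of the 26 with a hybrid value 25 were higher, with a median log2 ratio of 3.09, against 48.4% higher over the 223 tested peaks of these genes. The peak 4.24 kb upstream of Il27, which encodes a subunit of interleukin-27, held 17.9, 11.2, 20.5 and 27 tags in the hybrid controls and 499, 559, 408, 540 and 418 under LPS. It rose by 4.64 ± 0.24 on the log2 scale (edgeR adjusted p = 4.3e-14), with no overlap between the groups. A distal peak 62.1 kb upstream of Il6, with 2 AP-1 matches, rose by 3.37 ± 0.27, peaks near Il1rn, the interleukin-1 receptor antagonist gene, and Ifnb1, the interferon-β gene, by 2.96 ± 0.28 and 2.85 ± 0.29.

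Chemokine genes were nearest to 188 peaks, of which 12 were gained (6.38%), and 9 of 10 with a hybrid value were higher, against 34.0% of all tested peaks of these genes. The intronic peak of Cx3cl1, a membrane-bound chemokine gene, rose by 3.86 ± 0.36, from 31.1, 21.0, 15.4 and 1.12 tags to 243, 271, 259, 263 and 238. Peaks near Cxcl13, a B cell attractant gene, and Cxcl5, a neutrophil attractant gene, rose by 3.55 ± 0.48 and 3.36 ± 0.33. The LPS libraries lay above the controls at all 3 of these peaks.

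Among TLR4 signalling genes, 18 of 365 peaks were gained (4.93%, near the 4.12% of all peaks), and 14 of 16 with a hybrid value were higher. A peak 64.2 kb downstream of the start of Tlr4, the LPS receptor gene, held 0.941, 0, 7.69 and 10.1 tags in hybrid controls and 121, 148, 65.5, 101 and 144 under LPS, a rise of 4.60 ± 0.52. In the inbred libraries it held 83.0 and 118 tags in BALB/cJ LPS but 0, 21.4 and 14.3 in C57BL/6J LPS, and these groups, which differ in date as well as strain, did not overlap. A peak near Tlr2, the receptor for bacterial lipopeptides, rose by 2.45 ± 0.22.

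Genes of NF-κB components and feedback regulators were nearest to 37 gained peaks of 425 (8.71%), and 28 of 31 with a hybrid value were higher. Tnip1, whose product binds the deubiquitinase A20 and restrains NF-κB, was the gene with the most gained peaks, 9 of its 19. All 9 lay within 100 kb of its start, 8 had a hybrid value and all of these were higher, with ratios from 1.41 to 6.02. The peak shown above, in intron 6 of 18, held 9.41, 9.78, 1.28 and 1.12 tags in hybrid controls and 387, 314, 296, 408 and 196 under LPS (5.84 ± 0.38; edgeR adjusted p = 3.2e-12). The intronic peak of Traf1, an adaptor of TNF receptors, rose by 5.49 ± 0.27, and that of Zc3h12a, an RNase that degrades cytokine mRNA, by 1.52 ± 0.19. In contrast, the promoter peak of Nfkbiz, which encodes IκBζ, held 226 to 363 tags in controls and 311 to 474 under LPS (0.29 ± 0.17, adjusted p = 0.20 by edgeR), and these groups overlapped. The counting window of this Nfkbiz peak was shared with another peak, so its tags are not those of the gained peak alone. After Tnip1, Dst, Ext1, Foxp1 and Myo10 had 8 gained peaks each, of 34, 57, 51 and 48 peaks in all. Only 3 of those nearest to Ext1 lay within 100 kb of its start, against all 8 for each of the others, and 7 of 7, 7 of 8, 8 of 8 and 7 of 7 of those with a value were higher.

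Genes of MAP kinase feedback and mRNA decay had 25 gained peaks of 454 (5.51%), with 15 of 19 higher, against 24.9% of all tested peaks of these genes. An intergenic peak near Spred1, an inhibitor of Ras signalling, held 6.59, 9.78, 10.3 and 9 tags in controls and 282, 310, 255, 284 and 337 under LPS (5.05 ± 0.27). It held no AP-1 match and 2 RBPJ matches. A peak near Trib1, a pseudokinase gene, rose by 1.89 ± 0.20.

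The factor genes of the AP-1, ATF, EGR and MAF families were nearest to 30 gained peaks of 692 (4.34%, near that of all peaks), of which 24 were higher and 1 was lower. The peak 6.76 kb upstream of Atf3, a stress-induced ATF gene, held 7.53, 0, 20.5 and 16.9 tags in controls and 432, 436, 416, 487 and 391 under LPS, and rose by 5.24 ± 0.34 (edgeR adjusted p = 2.7e-12). Peaks near Klf4 and Batf rose by 4.45 ± 0.35 and 2.11 ± 0.24, and the peak in Batf, an AP-1 partner, held a κB and an ISRE match and no AP-1 match. The peak near Fosb fell by 1.09 on the log2 scale (SE 0.26), from 228, 156, 156 and 163 tags to 79.4, 43.4, 97.7, 80.9 and 113. It was also lower in both inbred strains, with ratios of -1.23 in C57BL/6J (-1.74 without LPS replicate 1) and -2.05 in BALB/cJ, and its window was shared with a peak 359 bp away. With all tags in place of perfectly mapped tags its ratio was -0.65 and no longer called.

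Genes of JAK-STAT signalling and the SOCS family had 19 gained peaks of 325 (5.85%), with 13 of 14 higher. The peak 30.9 kb from the start of Socs1, the inhibitor of JAK kinases, with 3 AP-1 matches, held 11.3, 8.38, 16.7 and 0 tags in controls and 508, 473, 531, 439 and 610 under LPS. It rose by 5.81 ± 0.33 (edgeR adjusted p = 2.6e-13). The peak upstream of Il4ra, which held no AP-1 match, rose by 4.76 ± 0.26. Interferon response genes had 27 gained peaks of 355 (7.61%), with 19 of 21 higher and a median ratio of 3.74. The promoter peak of Irf8, a lineage factor of myeloid cells, was at 123 to 233 tags in controls and 190 to 328 under LPS (0.50 ± 0.22, edgeR adjusted p = 0.081). Its counting window was also shared with another peak.

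Genes of the inflammasome and cell death had 17 gained peaks of 267 (6.37%), with 14 of 16 higher. Genes of arginine, itaconate and immune metabolism had 19 of 335 (5.67%), with 18 of 19 higher. The promoter peak of Nos2, which makes nitric oxide from arginine, held 14.1, 5.59, 7.69 and 0 tags in hybrid controls and 265, 243, 254, 269 and 246 under LPS, a rise of 5.14 ± 0.38 with no overlap. An intronic peak of Pfkfb3, a driver of glycolysis, with 2 C/EBP matches and no AP-1 match, rose by 4.66 ± 0.23. Adhesion, costimulation and receptor genes had 27 of 522 (5.17%), with 16 of 19 higher, among them the peak near Cd44, a hyaluronan receptor gene, by 3.63 ± 0.27.

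Genes of Kupffer cell identity had 27 gained peaks of 492 (5.49%), of which 18 of 22 with a value were higher and 1 was lower. An intronic peak of Folr2, a folate receptor of resident macrophages, held 14.1, 16.8, 1.28 and 1.12 tags in hybrid controls and 234, 222, 179, 205 and 278 under LPS (4.72 ± 0.41). An intronic peak of Tfec, a macrophage transcription factor, rose by 3.86 ± 0.30. The promoter peak of Id3, a Kupffer cell regulator, was lower under LPS, with 419 to 621 tags in the 4 controls and 186, 123, 125, 123 and 105 under LPS, and fell by 1.93 on the log2 scale (SE 0.18, edgeR adjusted p = 2.6e-09). Its inbred ratios were -1.17 in C57BL/6J (-1.20 without LPS replicate 1) and -1.58 in BALB/cJ, and with all tags in place of perfectly mapped tags its hybrid ratio was -0.05 and not called. The 6 gained peaks that were lower in the hybrid, among them those near Id3, Stx4a, Tomt and Fosb, all shared a window with another peak, and 5 lay within 1 kb of a gene start.

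Genes that mark other cell types had gained peaks as well. Of the peaks nearest to monocyte markers 4 of 84 were gained (4.76%), of lymphocyte markers 3 of 27 (11.1%), of sinusoidal endothelium markers 3 of 65 (4.62%) and of hepatocyte markers 4 of 30 (13.3%), against 4.12% of all peaks, and all 13 of those with a hybrid value were higher. Neutrophil markers had 0 of 21 and stellate cell markers 0 of 4. The part of such cells in these peaks was not tested. High LPS levels also occurred without a gain. The promoter peak of Klf9, a Krüppel-like factor gene, held 584, 506, 781 and 461 tags in hybrid controls and 525, 592, 346, 556 and 483 under LPS (-0.22 ± 0.16, edgeR adjusted p = 0.32), and shared its window with a peak 328 bp away.

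The hybrid also allows the 2 parental alleles to be compared within the same animals, by perfectly mapped tags that span a variant. Such tags were few, at about 273280 to 573430 per library for the C57BL/6J allele, so that 217 gained peaks passed a mean of 16 normalised tags. Under LPS, the C57BL/6J allele was higher at 17 of these (7.83%) and the BALB/cJ allele at 11 (5.07%), against 10.4% and 8.29% of all 6727 peaks tested, and 189 were not called. The median log2 ratio of C57BL/6J over BALB/cJ was -0.00, and 186 of the uncalled ratios were within 1. The count with a higher C57BL/6J allele fell to 10, 11 and 9 when CB6F1/J LPS replicate 1, 2 or 4 was left out.

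The intronic peak of Mitf, a transcription factor of the MiT family, had the highest C57BL/6J share, with 58.8, 43.1, 63.8, 62.2 and 49.6 C57BL/6J tags against 8.77, 3.19, 2.44, 11.4 and 4.11 BALB/cJ tags in LPS replicates 1 to 5. Its allele ratio was 3.18 ± 0.31 (edgeR adjusted p = 0.00013), and it held 39.3, 88.9 and 112 tags in C57BL/6J LPS against 19.2 and 21.2 in BALB/cJ LPS. The intronic peak of Atp6v0d2, a subunit of the vacuolar proton pump, had an allele ratio of 2.85 ± 0.33, and that near Serpina3n, a protease inhibitor gene, 1.36 ± 0.16. All 5 LPS libraries had more C57BL/6J than BALB/cJ tags at these 3 peaks.

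With a higher BALB/cJ allele, the peak near Rsad2, the gene of the antiviral protein viperin, held 34.1, 27.7, 67.5, 63.9 and 34.8 C57BL/6J tags against 274, 231, 206, 206 and 186 BALB/cJ tags (-2.31 ± 0.23, edgeR adjusted p = 0.00014). Its total rose by 4.71 ± 0.31 under LPS in the hybrid, and in the inbred strains it held 5.61, 29.9 and 61.4 tags in C57BL/6J LPS and 146 and 171 in BALB/cJ LPS. The intergenic peak near Vdac2, a mitochondrial channel gene, had an allele ratio of -2.11 ± 0.33, and that of Calcrl, a receptor gene for the CGRP peptide, -1.36 ± 0.19. The peak near Mx2, an interferon-induced gene, had a ratio of -1.09 ± 0.14. At the Tlr4 peak the BALB/cJ allele had more tags in all 5 libraries, with a ratio of -0.82 ± 0.22 (edgeR adjusted p = 0.023) that was under the size needed for a call. A peak near Itm2b had a ratio of -3.67 ± 0.41 but was not higher under LPS in the hybrid (0.16 ± 0.22, edgeR adjusted p = 0.63).

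In the inbred LPS libraries, all 11 peaks with a higher BALB/cJ allele had the higher mean in BALB/cJ, and 10 of the 17 with a higher C57BL/6J allele had it in C57BL/6J. Over all 217 peaks tested the mean was higher in C57BL/6J at 61 and in BALB/cJ at 156. Without C57BL/6J LPS replicate 1 these counts became 10 of 11 and 12 of 17, and among the uncalled peaks the C57BL/6J mean was higher at 86 and the BALB/cJ mean at 103. An AP-1 match stood in 8 of the 11 and 10 of the 17, against 124 of the 217. Peaks with fewer variant-spanning tags have no allele value, and with a mean over 4 in place of 16 the tested gained peaks numbered 371. Low depth and the absence of a variant were not separated.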

How the data were processed

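ATAC-seq libraries of sorted Kupffer cells were sequenced, and per the labels reads were trimmed to 30 bp, aligned with Bowtie2 to mm10 or to a strain genome built from it and shifted to mm10. HOMER then counted tags. The deposited values are whole counts for the inbred LPS libraries and estimated counts in steps of 0.5 tags elsewhere, per 1000-bp window and not normalised. The authors called single-library peaks with HOMER at a false discovery rate of 0.9, whose deposited signal is tags scaled to a fixed library size, and merged reproducible lists whose deposited score is capped at 1000. Versions are not given in the sources used here. Inbred columns were not all made alike: those of the C57BL/6J controls hold no mitochondrial tags, and per the file headers C57BL/6J tags were shifted from a strain genome under LPS but not in controls, and trimming is named for the control libraries and not for the inbred LPS libraries. The part of this in the inbred ratios was not tested.

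The gained peaks, gene lists, motifs and tests were chosen with earlier results of these data known. Counts were rounded and fitted with edgeR 4.0.16 (TMM, quasi-likelihood, Benjamini-Hochberg over all autosomal peaks tested), with DESeq2 1.42.0 as an alternative. A call required an adjusted p under 0.05, an absolute log2 ratio over 1 and a mean normalised count over 4, or over 16 for alleles, where a term per animal was fitted. The inbred fit over 17 libraries gave ratios only. Replicates are separately labelled samples of a group, and p-values measure only the spread between them, which may be technical. In the hybrid table the control columns of all tags held fewer tags than the perfectly mapped tags of the same library at 37.9 to 69.6% of peaks, against 0.00891 to 0.0122% under LPS, so perfectly mapped tags on mm10 replaced the planned counts before any result at the gained peaks was computed. On the log2 scale these columns correlated at 0.708 to 0.753 in controls and 0.996 to 0.998 under LPS. Which control columns are at fault was not settled. Perfect mapping to mm10 leaves out BALB/cJ reads that span a variant, in both groups alike. Named peaks, 1 per gene, within 100 kb of the gene start and without predicted or ribosomal genes, were those with the highest LPS levels, up to 4 per gene list with the highest LPS levels, the smallest allele p, the largest and smallest hybrid ratios and the genes with the most gained peaks. Peaks at the limits of the rule are named besides. Not every peak that the naming rule gives is reported here. On simulated data, 78% of 200 peaks changed by a log2 ratio of 2 were called among 210185, and 0.00143% of the unchanged ones. The changed peaks were drawn only from those with a mean count above the median. The simulated spread followed the trend with mean count and did not vary from peak to peak. Recovery of weaker or more variable peaks was therefore not measured. Motifs were searched in GRCm38.p6. Intervals cover counting error only.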

Additional observations from a re-analysis of the deposited data

Results flagged for a closer look

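In 9 of 95 groups of 4 or 5 hybrid libraries tested for a single distant value (9.47%), the highest or lowest library stood apart from the others. CB6F1/J control replicate 1 was the highest at the peaks near Bach1 (26.3 normalised tags), Zeb1 (0.941), Il33 (1.88) and Fosb (228). CB6F1/J control replicate 2 was the highest at the peaks near Map10 (1.40) and Il10 (2.79). At the peaks of Zeb1, Map10, Il10 and Il33 the other 3 controls held no tag, so that 1 or 2 tags made the difference. A group with tags in a single library is always flagged, and these peaks were named for their large ratios. The share of 9.47% is therefore not to be read against the 1 in 20 that chance gives. Among LPS libraries, replicate 2 was the highest at the promoter peak of Nfkbiz (474), replicate 1 the highest at that of Id3 (186) and replicate 3 the lowest at the Atp6v0d2 peak (174). Outside the rule, 67 of 2035 peaks on chromosome X (3.29%) were in both LPS lists and in no control list, and they were not analysed further.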

How the results depend on the processing

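The gained peaks called higher in the CB6F1/J hybrid numbered 2855 of 3297 tested, and between 2709 and 3036 under DESeq2, other scalings and filters, all tags on either genome, either library date, a 1-bp match and 50% overlap with both lists. Fewer peaks enter 3 alternatives, with 273 higher among those with enough variant-spanning tags, 417 among those with no called peak in a control library and 1791 among those whose counting window is not shared. The 6 lower calls became 11 with scaling to total counts, 26 with a 1-bp match, 2 without called control peaks and 0 by edgeR with a window of their own, and ranged from 6 to 10 when 1 library was left out. The median log2 ratio of 2.84 moved to 2.49 with all tags on mm10, 2.48 with all tags on the BALB/cJ genome, 2.70 with total counts, 2.72 with a 1-bp match, 3.23 without called control peaks and 3.28 with an unshared window. Scaling to total counts moved the median ratio of all hybrid peaks by -0.13, from -0.09 to -0.22. With the replicate block over 8 libraries, 2856 gained peaks were higher, 7 were lower and the median was 2.97, against 2860, 7 and 2.87 for the same libraries unblocked, and same-numbered libraries did not deviate together, with correlations from -0.025 to 0.0038 and not every library closest to its own number. Leaving out 1 library gave 9 to 14 peaks with a higher C57BL/6J allele and 11 to 14 with a higher BALB/cJ allele, and a mean count over 4 gave 17 of the latter. Without a term per animal, that is without a replicate block, they numbered 15 and 11. The BALB/cJ median ratio of 3.02 was 3.15 with total counts, 2.88 to 3.11 with 1 library left out and 3.95 without called control peaks, and the C57BL/6J median of 2.27 was 2.34 with total counts, 1.99 to 2.60 with 1 library left out and 2.74 without called control peaks. The AP-1 share of 52.0% was 49.3% without called control peaks and 56.7% beyond 1 kb from a gene start, and the PU.1 share of 3.66% was 2.09% without called control peaks. With 50% overlap, the shares in the hybrid allele lists fell to 10.2% and 10.7% under LPS and 0.851% and 1.19% in controls. Of 80 named peaks, 68 kept their side of the threshold in every alternative that gave a value, and 12 did not in at least 1. Of these, the lower calls near Id3 and Fosb were lost with all tags on mm10. The cause of these differences was not tested, apart from those that follow from fewer peaks. All tags on mm10 were the planned counts and became an alternative when perfectly mapped tags replaced them. Alternatives by date, by unshared window, by distance and the unblocked fit were added after seeing the data. The allele comparison reached 217 gained peaks, and 371 with a mean count over 4.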
